A study of Mus musculus with 7 samples.

Results

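The transcripts described here were those of 7 clock genes, the Arntl and Cry1 arm of the circadian oscillator, in livers of mice fed a high fat diet (HFD). The members were Arntl, Clock, Npas2, Cry1, Cry2, Nfil3 and Rora. They were picked by name from 24623 genes with at least 1 read in the libraries. The split of the clock into this arm and a Dbp and Per arm of 11 genes was made from the genotype contrast of these same livers, which was already known. The differences between genotypes, and the counts of members past a threshold in the fits over all genes, are therefore a description of the members and no test of them, and no p is printed for a member.

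RNA-seq counts were available for 3 WT and 4 TET1 KO livers, 1 liver per mouse by the labels. All mice were C57BL/6J males by the labels, and all were kept on the HFD for 16 weeks, which per the methods of the study started at 8 weeks of age. WT mice carried intact Tet1 and received no other agent. TET1 KO mice lacked Tet1, which encodes an enzyme that oxidizes methylated cytosine in DNA, in the whole body (genotype label TET-1-TKO where the labels abbreviate it), so the loss was not limited to hepatocytes, and the methods name B6;129S4-Tet1tm1.1Jae/J as the purchased knockout line. The hour of collection is not given in the sources used here, and serum was drawn without fasting.

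The circadian clock of liver is a transcriptional loop. BMAL1, the product of Arntl, pairs with CLOCK or with its relative NPAS2 and binds E-boxes in the promoters of the Per and Cry genes, Dbp, Nr1d1 and other targets. PER and CRY proteins accumulate and repress this pair. In a linked loop, ROR proteins such as that encoded by Rora activate, and REV-ERB proteins encoded by Nr1d1 and Nr1d2 repress, genes with ROR elements, among them Arntl, Npas2, Cry1 and Nfil3. Nfil3 encodes E4BP4, which represses through the D-box that DBP, TEF and HLF activate. In mouse liver, transcripts of Arntl, Npas2 and Nfil3 peak at about the opposite time of day to Dbp and the Per genes, so their levels depend on the hour at which a liver is taken.

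The promoter windows that hold exact matches to such elements near an annotated start are printed here. Elements outside the windows, or with other letters, were not searched. RefSeq sequences of GRCm38.p6 were used, from 250 bases before to 50 bases after each annotated start, and all 7 members were matched. Sequences run 5′ to 3′ on the strand of the gene, and capitals mark a motif. Arntl is at chr7:113178471-113314126 on the plus strand, and its window is chr7:113207261-113207560, at a start annotated inside the gene. Nfil3 is at chr13:52967209-52982878 on the minus strand, and its window is chr13:52980990-52981289, also at a start inside the gene.
Arntl: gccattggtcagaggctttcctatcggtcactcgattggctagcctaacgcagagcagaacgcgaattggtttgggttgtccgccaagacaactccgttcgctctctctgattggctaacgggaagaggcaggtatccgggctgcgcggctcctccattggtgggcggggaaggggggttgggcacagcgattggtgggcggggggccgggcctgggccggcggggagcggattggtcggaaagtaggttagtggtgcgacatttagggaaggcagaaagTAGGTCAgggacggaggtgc
Nfil3: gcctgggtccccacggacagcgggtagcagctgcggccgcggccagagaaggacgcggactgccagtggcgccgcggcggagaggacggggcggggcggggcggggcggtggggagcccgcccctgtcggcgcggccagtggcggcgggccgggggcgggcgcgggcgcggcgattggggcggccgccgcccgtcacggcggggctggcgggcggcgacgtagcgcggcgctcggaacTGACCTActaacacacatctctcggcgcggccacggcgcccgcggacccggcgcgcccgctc
Both windows hold the core of a ROR element, TAGGTCA, which begins at 30 from the start in Arntl, on the plus strand, and at -12 in Nfil3, on the minus strand, where it reads TGACCTA. A search of both strands for TAGGTCA or TGGGTCA found the core in 6.45% of all 32851 promoter windows. The other Arntl window, the 3 windows of Clock and those of Npas2, Cry1, Cry2 and Rora held no such core.

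The Cry genes encode the cryptochromes, the main repressors of BMAL1 and CLOCK. Cry1 is at chr10:85131700-85185054 on the minus strand, with its window at chr10:85185005-85185304. Cry2 is at chr2:92403646-92434085 on the minus strand, with its window at chr2:92434020-92434319.
Cry1: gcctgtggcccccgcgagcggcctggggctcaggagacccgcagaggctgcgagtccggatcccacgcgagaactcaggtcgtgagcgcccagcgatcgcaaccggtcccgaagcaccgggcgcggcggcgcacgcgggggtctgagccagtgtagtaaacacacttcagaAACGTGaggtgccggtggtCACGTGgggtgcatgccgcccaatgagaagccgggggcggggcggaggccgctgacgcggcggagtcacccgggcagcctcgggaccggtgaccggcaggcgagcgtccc
Cry2: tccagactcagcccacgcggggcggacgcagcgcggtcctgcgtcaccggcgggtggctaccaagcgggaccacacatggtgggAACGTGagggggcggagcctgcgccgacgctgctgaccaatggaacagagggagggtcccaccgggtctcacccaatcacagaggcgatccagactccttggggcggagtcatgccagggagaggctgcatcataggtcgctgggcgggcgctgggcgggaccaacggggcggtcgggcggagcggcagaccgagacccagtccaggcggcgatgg
Cry1 held an E-box, CACGTG, at -60 from the start, and an E-prime-box, CACGTT, on the minus strand and so printed as AACGTG, at -79. Cry2 held an E-prime-box of the same letters, at -166 on the minus strand. E-boxes were present in 7.15% and E-prime-boxes in 4.68% of all windows. No D-box, TTANGTAA, was found in any window of the 7 members, against 2.32% of all windows. These matches describe letters in these windows alone. The windows of the members held 9 to 54 CpG dinucleotides, against a median of 7 over all windows.

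Of the other members, Clock lies at chr5:76209868-76305603 on the minus strand, Npas2 at chr1:39193702-39363240 on the plus strand and Rora at chr9:68653404-69388246 on the plus strand. The knocked out gene itself, Tet1, lies at chr10:62804570-62887469 on the minus strand, on the same chromosome as Cry1 and 22.2 Mb away from it. In the gene models used for lengths, exons of Cry2 and Rora overlap antisense genes, D930015M05Rik with 0 to 3 counts and Gm15511 with 0 counts in every library. The strand setting of the counting is not given in the sources used here, so reads of these partners could not be separated from the members.

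Libraries held 15005277 to 22746138 counts. Tet1 had 1 to 4 counts in the WT and 1 to 4 in the TET1 KO libraries, so its level did not check the labels. Values are given in CPM, counts scaled to a common library total after TMM normalization, at which 1 CPM stood for 14.2 to 24.1 counts. Summed hepatocyte markers were 69059 to 88978 CPM in WT and 81704 to 92063 CPM in TET1 KO livers. The summed level of 4 cholangiocyte markers was 6.47 to 9.93 CPM in WT and 15.4 to 24.3 CPM in TET1 KO livers, and that of 4 endothelial markers was 99.4 to 101.7 and 83.1 to 96.5 CPM. Neither range overlapped between genotypes, none of these 8 markers passed the test, and no marker of either list was at 0 in all libraries. The 4 endothelial markers each overlapped between genotypes when taken singly. Stab2 and Clec4g, the highest of them, had log2 fold changes of -0.08 and -0.02, against -1.08 for Lyve1 and -0.42 for Pecam1. Among the cholangiocyte markers, Sox9 made up most of the sum in TET1 KO replicates 1 to 3, at 12.6, 20.9 and 14.9 CPM, while replicate 4 had the highest Krt19 and Epcam, at 6.68 and 4.87 CPM against at most 1.69 and 0.986 CPM in the other livers. Of the other lists, 1 of 4 stellate cell markers was called: Rgs5 fell by 0.67 on the log2 scale (edgeR adjusted p = 0.0460), from 22.7, 29.5 and 22.7 CPM in WT to 16.3, 13.7, 16.5 and 16.2 CPM in TET1 KO livers. The 3 adipocyte markers did not pass the filter, but their sum was 9.58 CPM in TET1 KO replicate 2, with Adipoq at 4.23 and Plin1 at 4.93 CPM, and at most 1.24 CPM in the other livers. The part of these markers in the values below was not tested. In whole liver, fewer cells of a type and less RNA per cell cannot be told apart. On the leading principal component (48.7% of the variance of log2 CPM), TET1 KO replicate 1 lay farthest out on the TET1 KO side at 57.1 and WT replicate 2 on the WT side at -56.9, with TET1 KO replicate 4 between the groups at 1.60.

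Among the 6 members that passed the filter on low counts, Cry2 was the single gene whose genotypes did not overlap, at 1.41-fold the WT level in TET1 KO livers. Of all genes tested, 22.5% had genotypes without overlap. Arntl, Clock, Cry1 and Nfil3 had lower and Rora had higher means in TET1 KO, each with overlapping genotypes. Npas2 was near the limit of detection.

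The counts of members past a threshold are given beside the same share of all genes as a description, and nothing is read from them, since this contrast was used to choose the members. In edgeR's quasi-likelihood test with Benjamini-Hochberg adjustment over all genes, 0 of 6 members were called at an adjusted p under 0.05, beside 2.02% of all 14754 genes tested (0.874% higher and 1.15% lower). At an unadjusted p under 0.05 the count was 1 of 6, Cry2, beside 26.3% of all genes. DESeq2 also gave 1 of 6, again Cry2, beside 9.88% of the genes to which it gave an adjusted p. Groups without overlap in CPM were seen in 1 of 6 members, beside 22.5% of all genes tested. The median log2 fold change of the 6 members was -0.29, with 2 values above and 4 below 0, and the median of all genes tested was 0.01. Npas2 did not pass the filter on low counts.

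**Figure D1:**
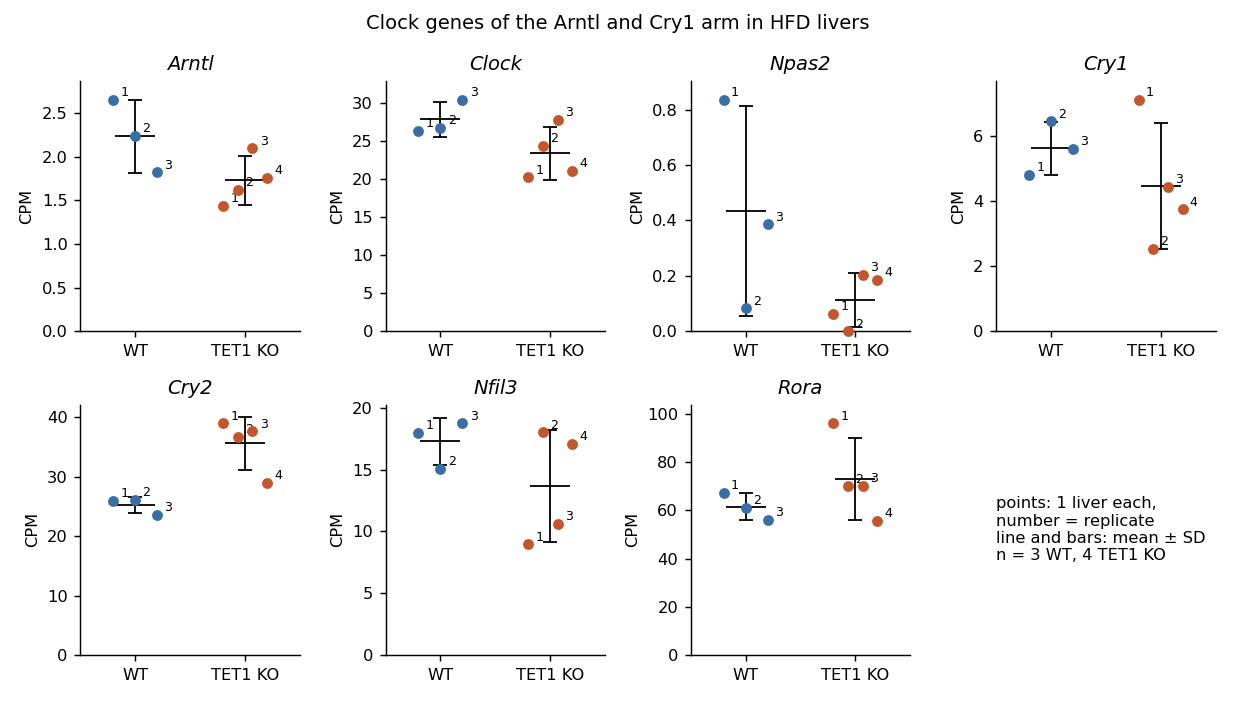
Levels of the 7 members in CPM (vertical axes, each from 0) in WT and TET1 KO livers; each point is 1 liver, the number beside it is the replicate, and the line with bars is the mean ± SD. Cry2 is the panel in which all 4 TET1 KO livers, at 29.0 to 39.0 CPM, sit above the 3 WT livers, at 23.6 to 26.1 CPM.

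The activators of the loop come first. Arntl was measured at 2.66, 2.24 and 1.82 CPM in WT replicates 1 to 3 and at 1.44, 1.62, 2.10 and 1.76 CPM in TET1 KO replicates 1 to 4. 3 of the TET1 KO livers were below every WT liver, and replicate 3 was above WT replicate 3. The means were 2.24 ± 0.418 CPM (SD, n = 3) and 1.73 ± 0.278 CPM (SD, n = 4). The log2 fold change was -0.37 with a standard error of 0.25 and a 95% interval from -0.92 to 0.19, so a fall to 0.529 times and a rise to 1.14 times the WT level both lay within it. These levels rested on 54, 54 and 33 counts in WT and on 23, 23, 41 and 38 counts in TET1 KO. The spread of Arntl between livers was close to counting error, with a chi-square per degree of freedom against Poisson counts of 1.49 in WT and 0.785 in TET1 KO.

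Clock encodes the partner of BMAL1. It stood at 26.3, 26.7 and 30.4 CPM in WT and at 20.2, 24.3, 27.8 and 21.1 CPM in TET1 KO livers. 3 of the TET1 KO livers were below the WT range and replicate 3 was inside it, as was the case for Arntl. The means were 27.8 ± 2.26 CPM and 23.3 ± 3.44 CPM. The log2 fold change was -0.25 with a standard error of 0.15 and an interval from -0.57 to 0.07.

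Npas2, which can take the place of Clock, had 17, 2 and 7 counts in WT and 1, 0, 4 and 4 counts in TET1 KO libraries. WT replicate 1 alone held 17 of the 26 WT counts. The 0 counts of TET1 KO replicate 2 allow a level of up to 0.260 CPM, the upper end of the exact Poisson interval. In CPM the values were 0.837, 0.0829 and 0.386 in WT and 0.0626, 0, 0.205 and 0.186 in TET1 KO, and they overlapped. In a fit without the filter the log2 fold change was -1.72 with a standard error of 0.81 and an interval from -3.44 to -0.0033, on 26 WT and 9 TET1 KO counts in total, and the gene did not pass the threshold in that fit. The interval is not adjusted for the number of genes.

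Of the repressors, Cry1 had the largest coefficient of variation of the tested members among the TET1 KO livers, at 43.5%. Its levels were 4.82, 6.47 and 5.63 CPM in WT and 7.14, 2.54, 4.45 and 3.76 CPM in TET1 KO. TET1 KO replicate 1 was the highest of all 7 livers and the other TET1 KO livers were below every WT liver. The means were 5.64 ± 0.822 and 4.47 ± 1.95 CPM. The log2 fold change was -0.34 with a standard error of 0.30 and an interval from -0.99 to 0.31. It was -0.64 without TET1 KO replicate 1 and -0.17 without TET1 KO replicate 2, which had the lowest level and the raised adipocyte markers. The 95% counting intervals of these livers, 5.89 to 8.58 CPM and 1.78 to 3.51 CPM, did not meet.

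Cry2 was measured at 25.9, 26.1 and 23.6 CPM in WT and at 39.0, 36.8, 37.6 and 29.0 CPM in TET1 KO livers. All 4 TET1 KO livers were above all 3 WT livers, and replicate 4 was nearest to WT. The means were 25.2 ± 1.39 CPM and 35.6 ± 4.50 CPM. The log2 fold change was 0.50 with a standard error of 0.14 and an interval from 0.19 to 0.80, or 1.41-fold with 1.14 to 1.75. It lay between 0.43 and 0.58 when each liver was left out in turn, and without TET1 KO replicate 4, the TET1 KO liver nearest to WT, it was 0.58. Cry1 and Cry2 encode closely related repressors, and their means differed between genotypes in opposite directions here. Whether the 2 differences are unequal was not tested.

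Nfil3, the D-box repressor, was at 18.0, 15.1 and 18.8 CPM in WT and at 8.95, 18.0, 10.6 and 17.1 CPM in TET1 KO livers. Replicates 1 and 3 of TET1 KO were below the WT range, and replicates 2 and 4 were inside it. The means were 17.3 ± 1.94 and 13.7 ± 4.56 CPM. The log2 fold change was -0.34 with a standard error of 0.24 and an interval from -0.86 to 0.19. Without TET1 KO replicate 1 it was -0.18, and without TET1 KO replicate 2 it was -0.51.

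Rora, the nuclear receptor that activates through ROR elements, was at 67.4, 61.1 and 56.2 CPM in WT and at 96.2, 70.0, 70.4 and 55.7 CPM in TET1 KO livers. 3 TET1 KO livers were above the WT range, and replicate 4 was the lowest of all livers. The means were 61.6 ± 5.61 and 73.1 ± 16.9 CPM. The log2 fold change was 0.25 with a standard error of 0.18 and an interval from -0.14 to 0.63. It was 0.09 without TET1 KO replicate 1, the highest liver.

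**Figure D2:**
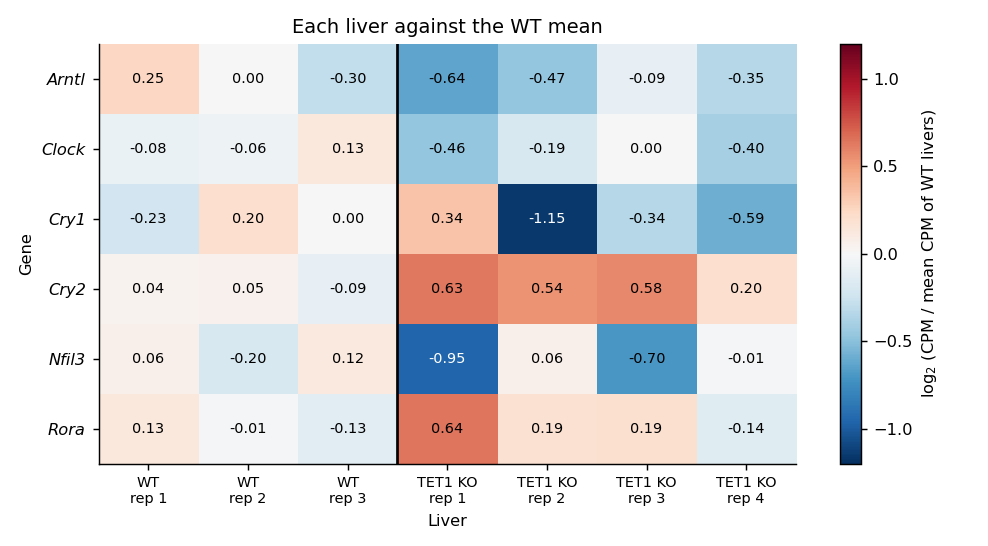
Each of the 6 tested members (rows) in each liver (columns) as log2 of its CPM over the mean CPM of the WT livers, blue below and red above; the vertical line parts WT from TET1 KO. TET1 KO replicate 1 has the highest values of the row for Cry1, Cry2 and Rora and the lowest for Arntl, Clock and Nfil3.

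The TET1 KO livers differed among themselves more than the WT livers in 5 of the 6 tested members. The coefficient of variation was 14.6% in WT and 43.5% in TET1 KO for Cry1, 11.2% and 33.3% for Nfil3, 9.11% and 23.1% for Rora, 8.11% and 14.7% for Clock and 5.52% and 12.6% for Cry2. Arntl went the other way, with 18.7% and 16.1%. Over all genes tested, 54.3% had the larger coefficient in TET1 KO livers, with medians of 16.2% and 17.7%. In TET1 KO livers the chi-square per degree of freedom against Poisson counts was 70.7 for Rora, 25.8 for Nfil3, 13.3 for Cry1, 11.5 for Cry2 and 9.48 for Clock, and in WT livers it was 9.84 for Rora, 4.81 for Nfil3, 3.53 for Clock, 2.63 for Cry1 and 1.49 for Cry2, a spread that holds differences between mice as well as counting error. Replicate 1 was at an extreme of the TET1 KO group in all 6 members. It was the highest for Cry1, Cry2 and Rora and the lowest for Arntl, Clock and Nfil3.

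Strong correlations between members among livers of a genotype were no more common than among all genes. On deviations of log2 CPM from the genotype mean, the size of Pearson's r over the 7 livers was 0.5 or more in 5 of the 15 pairs of members, against 37.4% of all pairs of tested genes. It was -0.89 between Cry1 and Nfil3 and 0.84 between Cry2 and Rora. It was -0.73 between Nfil3 and Rora and -0.65 between Cry2 and Nfil3. The 10 pairs under 0.5, among them every pair with Arntl or Clock, were at 0.343 or below in size. Arntl and Clock, which encode partners, had an r of 0.25 on this scale and of 0.57 on log2 CPM itself. The 7 points share libraries and their scaling, and replicate 1 of TET1 KO lies at an end of every member, so these values describe 7 livers and were given no p.

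Levels could be ordered between genes per length of exon. In WT livers the order was Nfil3 at 8.53 ± 0.958 CPM per kb (SD, n = 3), Rora at 4.70 ± 0.428, Cry2 at 3.99 ± 0.220, Clock at 3.15 ± 0.255, Cry1 at 1.87 ± 0.273, Arntl at 0.766 ± 0.143 and Npas2 at 0.0909 ± 0.0792. No pair of neighbours in this order overlapped in WT. In TET1 KO livers Nfil3 was at 6.76 ± 2.25 (SD, n = 4), Cry2 at 5.63 ± 0.712, Rora at 5.58 ± 1.29, Clock at 2.64 ± 0.389, Cry1 at 1.48 ± 0.646, Arntl at 0.591 ± 0.0950 and Npas2 at 0.0236 ± 0.0205. There, Nfil3 overlapped Cry2, Cry2 overlapped Rora and Clock overlapped Cry1. Within both genotypes, Arntl was below Clock by this measure in every liver. An overlap of ranges is a description of these livers, and the order was not tested.

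**Figure D3:**
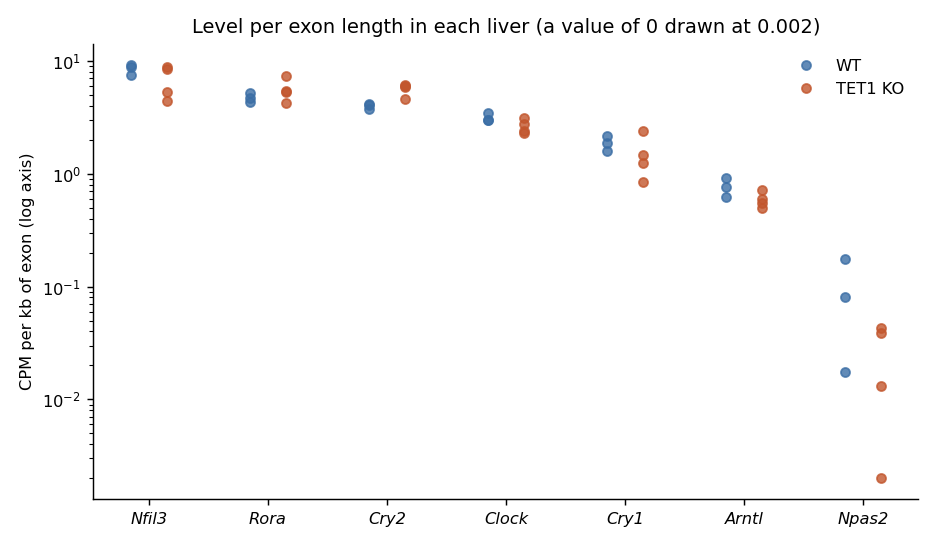
Level per exon length (vertical log axis, CPM per kb) of each member in each WT (blue) and TET1 KO (orange) liver, ordered by the WT mean; a value of 0 is drawn at 0.002. WT means run from 8.53 CPM per kb for Nfil3 down to 0.0909 for Npas2.

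By the rule for likeness, genes with a mean of at least 5 CPM were ranked by Pearson's r of log2 CPM to Arntl over the 7 livers. Of 9842 such genes, the most alike included Mpc1 with 0.98, Psmd12, Gm13131, Plvap and Dtnbp1 with 0.97. The most opposite included Abhd10 and Cnp with -0.96 and Tent5a and Prkrip1 with -0.95. On deviations from the genotype mean, Gm15920 with 0.98 and Pde4b, Mpc1 and Dtnbp1 with 0.97 to 0.96 led, and Tmem28 with -0.99, Setd7 with -0.97, Ctdp1 with -0.96, Cnp with -0.96 and Abhd10 with -0.95 were most opposite. Mpc1, Dtnbp1, Abhd10 and Cnp were in both. Arntl had 23 to 54 counts per library, and its spread within genotypes was close to counting error. The named genes are the extremes of 9842, the livers are few, and no p was computed. Cry1 and Npas2 were below the minimum level for this ranking, and Clock, Cry2, Nfil3 and Rora were not among the named genes.

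In the Dbp and Per arm, 4 of 11 genes were called higher in TET1 KO and 0 lower, beside 0.874% and 1.15% of all genes, and the median log2 fold change was 0.79. Per3, a repressor partner, rose by 1.12 on the log2 scale with a standard error of 0.15 (edgeR adjusted p = 0.0082), Tef, a D-box activator, by 0.79 ± 0.14 (SE; edgeR adjusted p = 0.0224), Dbp, the D-box activator named above, by 0.91 ± 0.19 (SE; edgeR adjusted p = 0.0437) and Bhlhe41, an E-box repressor, by 1.58 ± 0.34 (SE; edgeR adjusted p = 0.0437). Per2 was at 1.03 ± 0.23 (SE; edgeR adjusted p = 0.0501), just short of the threshold, which it passed with DESeq2, with the replicate block and without TET1 KO replicate 2 or TET1 KO replicate 4. Its adjusted p ranged from 0.0176 to 0.239 over the livers left out. The number of genes of this arm called higher was 6 with DESeq2, Ciart among them, and 5 with the replicate block. Ciart, an inhibitor of BMAL1 and CLOCK, was at 1.07 (edgeR adjusted p = 0.116), Nr1d2 at 0.21 (edgeR adjusted p = 0.304) and Per1 at 0.16 (edgeR adjusted p = 0.739). Dbp was at 157, 103 and 84.7 CPM in WT and at 221, 227, 212 and 202 CPM in TET1 KO livers, without overlap. The list was split off on the genotype contrast of these same livers. Its count of calls and its p-values are therefore a description and no test of the arm. Leaving out WT replicate 2 took the count from 4 to 0. It was 1 with WT replicate 3 or TET1 KO replicate 3 left out, 2 with TET1 KO replicate 1 or TET1 KO replicate 2 left out and 5 with TET1 KO replicate 4 left out. Of these 11 genes, Bhlhe40 was the one whose levels were most opposite to Arntl, with an r of -0.84 over the 7 livers and of -0.92 within genotypes. From the highest r down, it ranked 14583 and 14716 of 14754 genes, so other genes were more opposite. The spread of Arntl within genotypes was close to counting error, and no relationship was tested.

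**Figure D4:**
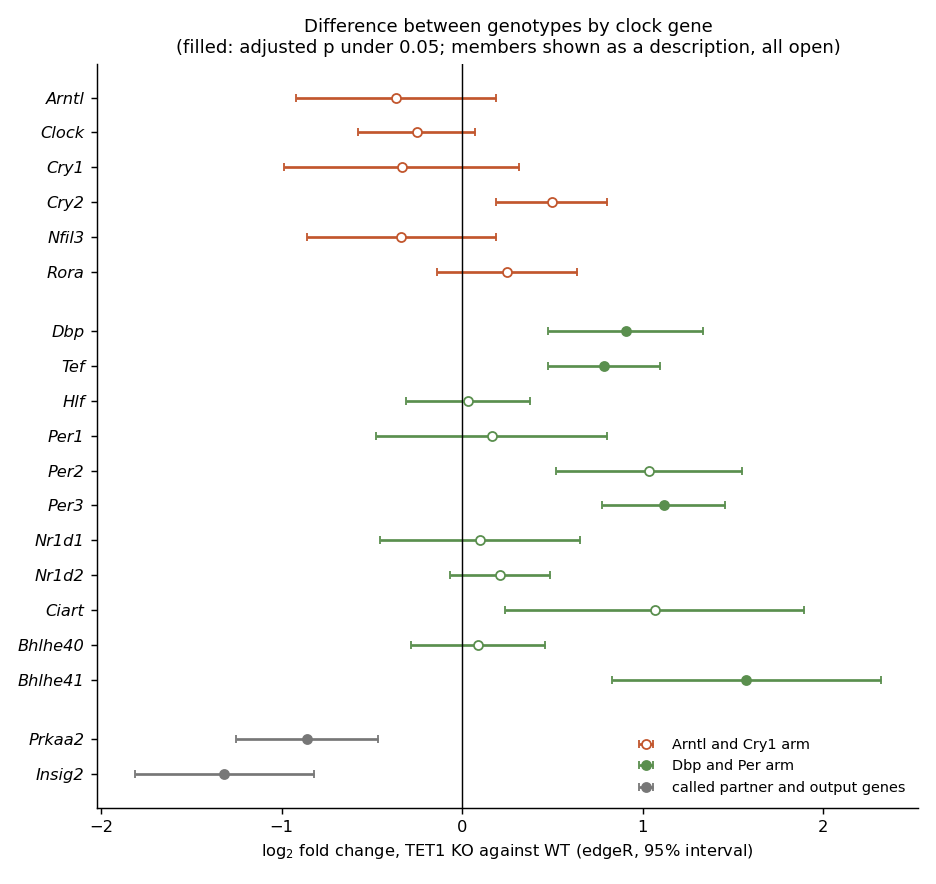
log2 fold change of TET1 KO against WT (horizontal axis) with its 95% interval for the 6 tested members (orange), the Dbp and Per arm (green) and the called partner and output genes (grey); filled points have an adjusted p under 0.05, and members are all drawn open, since they were chosen on this contrast and are shown as a description. The members lie between -0.37 and 0.50, and of them only the interval of Cry2 lies clear of 0. Intervals are not adjusted for the number of genes and are no test of the members. Of all genes tested, 26.3% had an unadjusted p under 0.05 (edgeR). The Dbp and Per arm was split off on the same contrast, so its filled points are a description as well.

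Of 18 relatives and partners of the members' products, 17 could be tested, and Rorb had 0 counts. Prkaa2, which encodes a catalytic subunit of AMPK, a kinase that marks cryptochromes for degradation, was the 1 gene called and fell by 0.86 on the log2 scale with a standard error of 0.18 (edgeR adjusted p = 0.0384). That is 1 of 17 lower and 0 higher, beside 1.15% and 0.874% of all genes. The call was lost without WT replicate 2, WT replicate 3 and TET1 KO replicates 1, 2 and 3. The fall is in RNA of a single subunit, and the paper reported AMPK protein and its phosphorylated form as unaffected by TET1 KO. The median of the list was 0.02. Csnk1e, a kinase of PER proteins, was at 0.82 (edgeR adjusted p = 0.0985), Arntl2, a relative of Arntl, at 0.93 (edgeR adjusted p = 0.187) and Ncor1, the corepressor of REV-ERB proteins, at 0.39 (edgeR adjusted p = 0.211).

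Of 16 clock output genes of liver, 0 were called higher and 1 lower, beside 0.874% and 1.15% of all genes, with a median log2 fold change of -0.04. Insig2, which encodes a retention protein of SREBP in the endoplasmic reticulum, fell by 1.32 on the log2 scale with a standard error of 0.22 (edgeR adjusted p = 0.0196), a call lost without WT replicate 2 or TET1 KO replicate 2. Upp2, a uridine phosphorylase, was at 0.72 (edgeR adjusted p = 0.100), Elovl3, a fatty acid elongase that follows the clock in liver, at -0.91 (edgeR adjusted p = 0.104), Usp2, a deubiquitinase, at 1.30 (edgeR adjusted p = 0.105) and Nampt, the NAD salvage enzyme, at -0.62 (edgeR adjusted p = 0.136).

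The signs of the 6 members were the same in all 15 ways of analysis that were run, and their sizes moved within a range. Leaving out each liver in turn gave -0.51 to -0.24 for Arntl, -0.36 to -0.19 for Clock, -0.64 to -0.17 for Cry1, 0.43 to 0.58 for Cry2, -0.51 to -0.18 for Nfil3 and 0.09 to 0.36 for Rora. Since the members were chosen with their values known, a stable sign is no independent evidence for a direction.

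**Figure D5:**
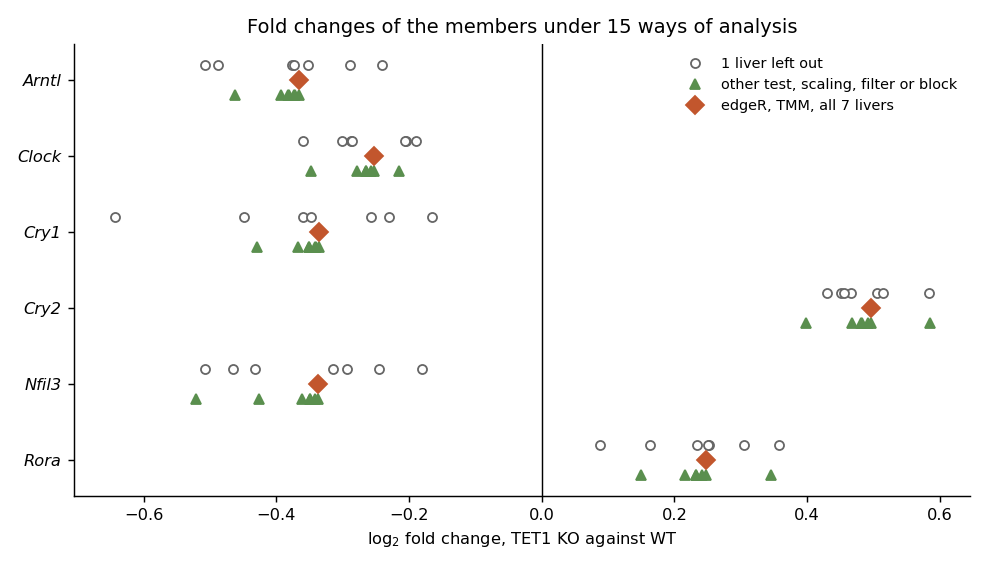
log2 fold change (horizontal axis) of each tested member in the analysis described (diamonds), with 1 liver left out (open circles) and with another test, scaling, filter or replicate block (triangles). Cry1 ranges from -0.64 to -0.17 with single livers left out, and no member crosses 0.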

How the data were processed

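Liver RNA-seq of 3 WT and 4 TET1 KO mice was analysed. The authors deposited 1 table of raw read counts per gene and mouse, not normalized. The submitters' processing notes name GRCm38, Trimmomatic 0.36, GSNAP and featureCounts 1.5.3, without roles or settings. The kit was stranded, the labels give poly(A) selection or rRNA depletion as alternatives, and the strand setting and annotation release are not given in the sources used here. Libraries held 15005277 to 22746138 counts, and intervals of counts (exact Poisson, 95%) cover counting error only.

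Groups came from the sample titles. Entries were joined by Ensembl identifier. Of 51431 entries per table, 5 repeats were left out, and 51426 genes remained. In R 4.3.3 with edgeR 4.0.16, filterByExpr kept 14754 genes, TMM scaled the libraries and the quasi-likelihood test (glmQLFit, legacy = FALSE) compared the genotypes without covariates. Calls were made at a Benjamini-Hochberg adjusted p under 0.05 over all genes tested. The standard error of a difference was its size over the square root of F. A prior count of 2 entered log2 CPM. DESeq2 1.42.0 was an alternative. Tested on simulated data, edgeR recovered 190 of 200 genes changed by 2 on the log2 scale in this comparison, with 6 false calls among 14507 genes. Smaller changes, such as those of the members, were not simulated, so the recovery of such changes is not known.

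Members and lists were chosen with earlier results of these data known. The rule named all 7 members and, from the lists of other clock genes, the called genes and up to 4 others with the smallest p. For likeness it named the 5 genes at each end of r. Some genes that the rule picks are not reported here. Dbp in CPM and Bhlhe40 were named after their values were seen. Alternatives were other scalings (RLE, library size only), no filter, a minimum of 10 counts in each library, dispersions estimated robustly, a replicate block and leaving out each liver. For exon lengths, gene models of GENCODE M1 (NCBIM37) were matched by identifier, and no coordinates of that build were used. Gene positions and promoters are from RefSeq (GRCm38.p6), motifs were searched on both strands with Python 3.11.15, and figures were drawn with matplotlib 3.10.9.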

Additional observations from a re-analysis of the deposited data

How the results depend on the processing

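The 6 members kept their sign in all 14 alternatives, and no member was called lower in any. As a description, since the members were chosen on this contrast, Cry2 passed the threshold with DESeq2, with the replicate block and without TET1 KO replicate 4, so the number of members called higher was 1 in each of these and 0 to 1 over the livers left out. Over the 14 alternatives, the adjusted p of the other members stayed above the threshold. Of all genes, 129 were called higher and 169 lower. These counts were 693 and 707 with DESeq2, 671 and 656 with the replicate block and 245 and 347 without a filter on low counts. Leaving out each liver gave 16 to 427 higher and 21 to 464 lower, with the lowest counts without WT replicate 2 and the highest without TET1 KO replicate 4. With scaling by library size only, 312 genes were called lower, 25.5% of the calls were higher against 43.3% with TMM, and the median of all genes moved by -0.0926. The causes were not tested.

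Of the other lists, 1 family and partner gene and 1 output gene were called higher, and 2 output genes lower, both with DESeq2 and with the replicate block. The feeding- and fasting-responsive list had 0 genes called higher with library size only and 0 to 1 over the livers left out. In those fits the Dbp and Per arm had 0 to 5 genes called higher, the family and partner genes 0 to 1 called lower and the output genes 0 to 2 called lower. Reversed signs were seen for Per1, at -0.0968 without WT replicate 1 (range -0.0968 to 0.3406), and Igfbp1, at 0.1164 without WT replicate 2 (range -0.9235 to 0.1164), neither of which was called.

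The replicate numbers were not shown to pair the mice. Deviations from the genotype means correlated at 0.209, -0.123 and -0.0964 between livers numbered 1, 2 and 3, and TET1 KO replicates 2 and 3 correlated best with WT livers of another number (0.155 and 0.0733). With the replicate block, the log2 fold change of Cry2 was 0.58, that of Nfil3 -0.52 and that of Rora 0.35.

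Counts were low for Arntl, with 23 to 54 per library, and for Npas2, with 0 to 17. The 3 WT and 4 TET1 KO livers and the unknown hour of collection limit every comparison. Without 1 liver, a group of 3 becomes 2.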

Other observations

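A list of 8 feeding- and fasting-responsive liver genes was measured beside the clock genes, since the feeding state of the mice at collection is not given for the RNA. Of the 8, 1 was called higher and 0 lower in TET1 KO livers, beside 0.874% and 1.15% of all genes, and the median log2 fold change was 0.21. Irs2, which encodes an adaptor of the insulin receptor, rose by 1.00 on the log2 scale with a standard error of 0.22 (edgeR adjusted p = 0.0437), a call lost without WT replicates 1, 2 or 3 and without TET1 KO replicates 1 or 3. It stood at 6.59, 6.18 and 4.64 CPM in WT and at 13.5, 8.31, 10.8 and 13.8 CPM in TET1 KO livers, without overlap. Sik1, a kinase induced by glucagon signalling, was at 0.45 (edgeR adjusted p = 0.221), Ppargc1a, a coactivator of fasting genes, at 0.27 (edgeR adjusted p = 0.288) and Igfbp1 at -0.44 (edgeR adjusted p = 0.561). Their part in the levels of the clock genes was not tested.

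Dixon's criterion was applied to the 4 TET1 KO livers for 31 items, the members, the named genes and the library totals. It marked 0 of them, where chance would mark about 1.55.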
